A study of Neurospora crassa with 12 samples.

Results

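Glycosyl hydrolase genes of the cell wall of Neurospora crassa were followed through 12 RNA-seq libraries. They are chit-1 (NCU02184), neg-1 (NCU04395), gh76-3 (NCU08127) and NCU07355, 4 of the 9730 genes with a deposited count. They were selected on their measured difference between the Δpac-3 strain and its control, as enzymes that the study named and that go in opposite directions. That difference is therefore described for them without a test. Their response to inorganic phosphate (Pi) within each strain was not a criterion of the choice and was tested. That test is not independent of the choice, since it uses the same libraries. The study had named chit-1 for a strain difference in low-Pi and the other 3 for one in both media.

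The study germinated conidia of the Δpac-3 strain and of the Δmus-52 strain in low-Pi medium (10 µM) and in high-Pi medium (10 mM), with 3 biological replicates (I, II and III) in each of the 4 groups. In the Δpac-3 strain the bar gene replaces the pac-3 open reading frame in a mus-52 knockout background, so by their descriptions both strains lack mus-52, which encodes a Ku subunit of non-homologous end joining. Germination lasted 5 h at 30 °C in medium of pH 5.4 that held 44 mM sucrose and 50 mM citrate, and the mycelium was then harvested. Conidia came from cultures of 10 days for Δpac-3 and of 5 days for Δmus-52, so the age of the conidial culture and the deletion cannot be told apart in any comparison of the strains.

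The wall of a filamentous fungus is a network of chitin and glucans with mannoproteins attached to it. Glycosyl hydrolases (GH), grouped into numbered families, cut or rearrange these polymers while hyphae grow, branch and separate. The gene chit-1 (NC12 assembly, chromosome I:937786-943577) encodes a chitinase of family GH18, which hydrolyses chitin. The gene neg-1, also named gh30-1 (chromosome IV:3501796-3503512), encodes an endoglucanase of family GH30 that acts on β-1,6-linked glucan. The gene gh76-3, also named dcw1 (chromosome VII:3454730-3457555), encodes a GH76 enzyme, and in N. crassa DCW1 and its relative DFG5 attach glycoproteins to the wall. The study annotates NCU07355 (chromosome I:6262725-6265061) as a member of family GH71, whose characterised fungal enzymes cut α-1,3-linked glucan. PAC-3 is the zinc finger transcription factor of the fungal ambient pH signalling pathway.

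The libraries held 20240314 to 82211503 counts, and values are given as CPM, that is, counts scaled to a common library total with the TMM factors of edgeR for the 12 libraries. The gene pac-3 (NCU00090) had 133.5 to 157.0 CPM in the libraries labelled Δpac-3 low-Pi, against 511.4 to 518.0 CPM in those labelled Δmus-52 low-Pi. In high-Pi it had 129.6 to 181.6 CPM in Δpac-3 libraries, against 354.6 to 452.1 CPM in those labelled Δmus-52. Counts of mus-52 (NCU00077) were between 0 and 36 in the 6 libraries labelled Δpac-3, against 487 to 1344 in the 6 labelled Δmus-52. The presence of mus-52 goes against the label of the control libraries. The compared groups thus differ in mus-52 as well. This cannot be told apart from the pac-3 deletion or the culture age in any comparison of the strains. The 3000 to 12710 counts of pac-3 that remained in each library labelled Δpac-3 go against that label too, and where on the gene these reads lie was not analysed here. Strains are therefore named below by the label of the library. Of 7 conidial genes (con-6, con-8, con-10, con-13, eas, ccg-1 and fl), none was at 0 in any library. Their summed level was 176.2 to 532.1 CPM in Δpac-3 low-Pi, 194.6 to 242.4 CPM in Δmus-52 low-Pi, 170.2 to 321.5 CPM in high-Pi Δpac-3 and 78.9 to 85.7 CPM in Δmus-52 high-Pi libraries. In low-Pi 4 of the 7 were higher and 2 lower in libraries labelled Δpac-3, while 3 were higher there in high-Pi, at an edgeR adjusted p below 0.05 that 51.2% of all genes tested passed in low-Pi (25.3% higher, 25.9% lower) and 35.4% in high-Pi (18.8% higher). The sum holds opposite moves. In low-Pi eas averaged 288.8 CPM in Δpac-3 against 5.80 CPM in Δmus-52 libraries, and ccg-1 averaged 36.1 CPM against 183.5 CPM. The part of conidial RNA in the differences described below was not tested.

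The chitinase gene chit-1 was lower in libraries labelled Δpac-3 in both Pi conditions, and the other 3 genes were higher. In low-Pi, chit-1 had 12.85, 10.46 and 8.73 CPM in libraries I, II and III labelled Δpac-3, against 38.9, 25.4 and 29.9 CPM in those labelled Δmus-52. The groups did not overlap, and the library closest to the other group was Δpac-3 I. In high-Pi it had 22.4, 6.10 and 11.4 CPM in libraries labelled Δpac-3, against 40.3, 34.4 and 38.5 CPM in those labelled Δmus-52. Again no library of one group reached the other, but Δpac-3 library I stood well above its replicates. The log2 fold change of Δpac-3 over Δmus-52 was −1.54 (SE 0.18) in low-Pi and −1.49 (SE 0.41) in high-Pi, a level of 0.344 and 0.355 times that of the control. Because RNA was taken from whole cultures, fewer cells that transcribe a gene and less RNA per cell cannot be told apart here or in the values that follow.

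The glucanase gene neg-1 was higher in libraries labelled Δpac-3, with the wider gap in high-Pi. In low-Pi it had 30.2, 32.9 and 28.8 CPM in libraries I, II and III labelled Δpac-3, against 6.49, 6.14 and 7.81 CPM in those labelled Δmus-52. In high-Pi it had 18.3, 38.9 and 33.3 CPM in libraries labelled Δpac-3, against 2.42, 1.58 and 4.04 CPM in those labelled Δmus-52. The groups were separate in both media, and Δpac-3 high-Pi library I was the lowest of its strain. The log2 fold change of Δpac-3 over Δmus-52 was 2.18 (SE 0.13; 4.54-fold) in low-Pi and 3.50 (SE 0.41; 11.3-fold) in high-Pi. The group means of the Δpac-3 libraries lay close together, at 30.6 ± 2.09 CPM with low-Pi and 30.2 ± 10.65 CPM with high-Pi, while the Δmus-52 libraries averaged 6.81 ± 0.880 CPM with low-Pi and 2.68 ± 1.25 CPM with high-Pi (SD, n = 3 each). The wider gap in high-Pi thus lay in the level of the control libraries.

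The mannanase-family gene gh76-3 was about 3 to 4 times as high in libraries labelled Δpac-3. In low-Pi it had 110.6, 106.8 and 110.5 CPM in libraries I, II and III labelled Δpac-3, against 34.2, 40.5 and 35.2 CPM in those labelled Δmus-52. In high-Pi it had 107.4, 116.0 and 93.9 CPM in libraries labelled Δpac-3, against 24.3, 27.6 and 21.9 CPM in those labelled Δmus-52. Every library labelled Δpac-3 was more than double any library labelled Δmus-52. On the log2 scale the fold change of Δpac-3 over Δmus-52 was 1.58 (SE 0.09; 3.00-fold) in low-Pi and 2.12 (SE 0.14; 4.35-fold) in high-Pi.

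The GH71 gene NCU07355 differed most of the 4 in low-Pi. It had 99.8, 62.2 and 65.1 CPM in libraries I, II and III of Δpac-3 in low-Pi, against 7.41, 6.46 and 8.06 CPM in those labelled Δmus-52. In high-Pi it had 36.9, 96.1 and 57.7 CPM in libraries labelled Δpac-3, against 9.65, 8.72 and 10.3 CPM in those labelled Δmus-52. The groups did not overlap, the control libraries were tightly grouped, and the Δpac-3 libraries were spread. The log2 fold change of Δpac-3 over Δmus-52 was 3.39 (SE 0.19; 10.5-fold) in low-Pi and 2.75 (SE 0.33; 6.73-fold) in high-Pi.

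**Figure D1:**
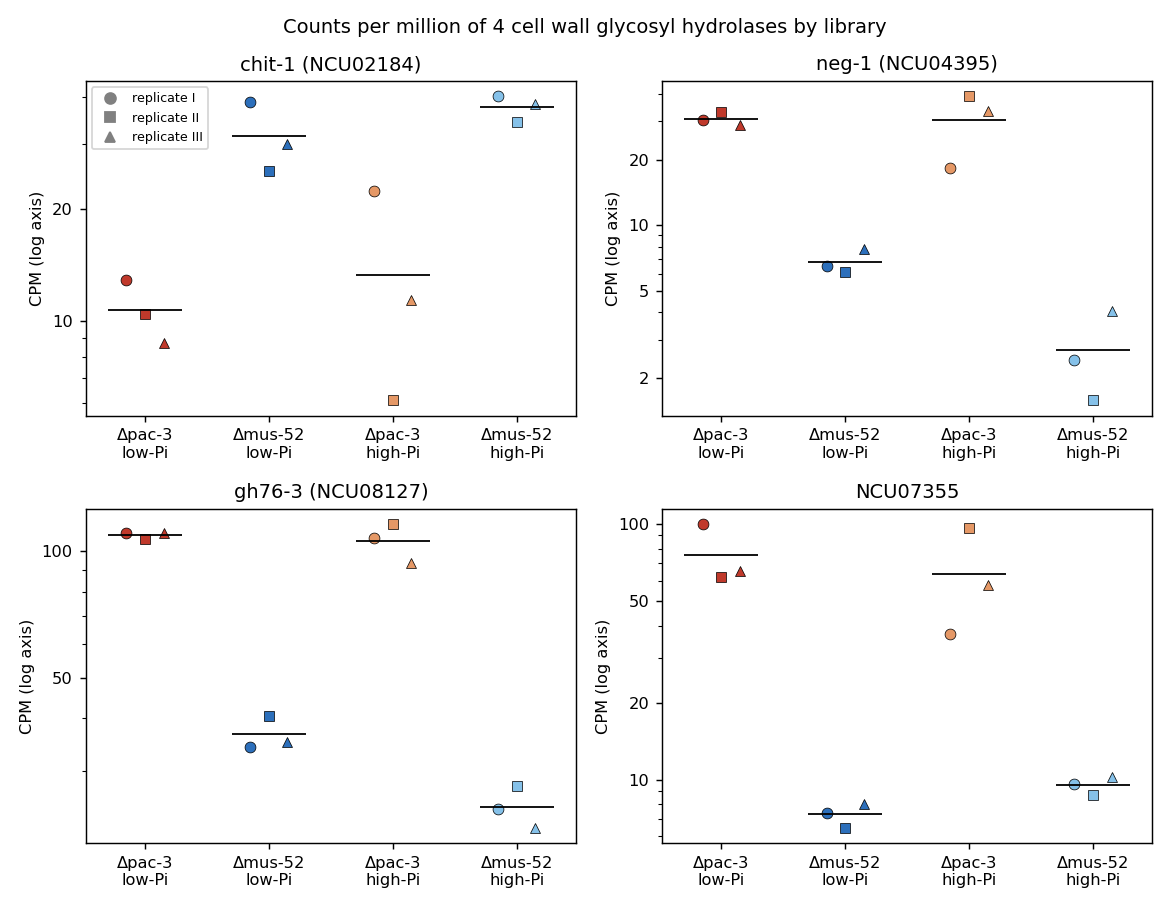
CPM on a log axis for chit-1, neg-1, gh76-3 and NCU07355, with 1 point per library (circle, square and triangle for replicates I, II and III) and a line at the mean of each group of 3. The chit-1 points of Δpac-3 lie below those of Δmus-52 in both media, the points of the other 3 genes lie above them, and library I of Δpac-3 high-Pi is the highest of its group for chit-1 (22.4 CPM) and the lowest for neg-1 (18.3 CPM) and NCU07355 (36.9 CPM).

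The study called a gene modulated if its adjusted p was below 0.05 and its log2 fold change was 1.5 or more either way, and the 4 genes can be placed against that limit. Of all genes tested with edgeR in low-Pi, 9.6% were modulated between the strains, 5.28% up and 4.32% down in Δpac-3, and in high-Pi 9.14%, with 7.24% up and 1.9% down. In low-Pi chit-1 (−1.54) and gh76-3 (1.58) lay just past 1.5 on the log2 scale, and in high-Pi chit-1 (−1.49) lay just short of it. Without Δmus-52 low-Pi library I the chit-1 (NCU02184) value in low-Pi was −1.36, and without Δpac-3 low-Pi library III it was −1.42. In high-Pi it was −2.10 without Δpac-3 library I and −1.13 without Δpac-3 library II. The low-Pi fold change of chit-1 exceeded that of 4.14% of the genes tested, and those of gh76-3, neg-1 and NCU07355 exceeded 95.3%, 97.5% and 99.2% of them. In high-Pi these shares were 1.94% for chit-1, 95.7% for gh76-3, 98.6% for neg-1 and 97.7% for NCU07355. Libraries of the 2 strains did not overlap for any of the 4 genes in either medium, and the same was true of 59.7% of all genes tested in low-Pi (30% higher, 29.7% lower) and of 51.8% in high-Pi (24.6% higher, 27.2% lower). Nothing is read from these counts, since the genes were chosen for this difference.

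In the Δpac-3 high-Pi libraries the coefficient of variation among replicates was 62.6% for chit-1, 47.2% for NCU07355, 35.3% for neg-1 and 10.5% for gh76-3. For chit-1 and NCU07355 this was the widest of the 4 groups, while for neg-1 and gh76-3 the Δmus-52 high-Pi libraries varied more, at 46.6% and 11.5%. Library I of that Δpac-3 group had the highest chit-1 of its group and the lowest neg-1 and NCU07355, and library II had the lowest chit-1 and the highest neg-1, gh76-3 and NCU07355. Over all genes the common biological coefficient of variation from edgeR was 0.208 in the high-Pi comparison of the strains and 0.121 in the low-Pi one. The summed conidial level of these libraries was 170.2 CPM in library I, 188.2 CPM in library II and 321.5 CPM in library III, and its part in this spread was not tested.

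Within a library the ratio of 2 genes' counts depends on neither the sequencing depth nor the scaling, so each of the 3 higher genes was set against chit-1 in its own library. Such a ratio is compared only across libraries, since the lengths of the 2 transcripts enter it. The ratio of neg-1 to chit-1 was 2.35, 3.15 and 3.30 in libraries I, II and III of Δpac-3 in low-Pi, against 0.167, 0.242 and 0.261 in those labelled Δmus-52. In high-Pi it was 0.819, 6.39 and 2.93 in libraries labelled Δpac-3, against 0.0600, 0.0460 and 0.105 in those labelled Δmus-52. The strains were separate in both media, and the Δpac-3 high-Pi libraries spread most widely. For all 3 ratios the separation follows from the choice of the genes and is no added result. It was fixed once chit-1 was lower and the other gene higher without overlap. The ratio of NCU07355 to chit-1 was 7.77, 5.95 and 7.46 in low-Pi libraries labelled Δpac-3, against 0.191, 0.255 and 0.270 in those labelled Δmus-52. In high-Pi it was 1.65, 15.8 and 5.08 in libraries labelled Δpac-3, against 0.240, 0.253 and 0.267 in those labelled Δmus-52. The 6 control libraries thus kept nearly 1 ratio between these genes whatever the Pi. The ratio of gh76-3 to chit-1 ranged from 8.60 to 12.7 in Δpac-3 low-Pi against 0.878 to 1.59 in Δmus-52 low-Pi libraries, while in high-Pi it was 4.80 to 19.0 for Δpac-3 against 0.569 to 0.800 for Δmus-52 libraries.

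**Figure D2:**
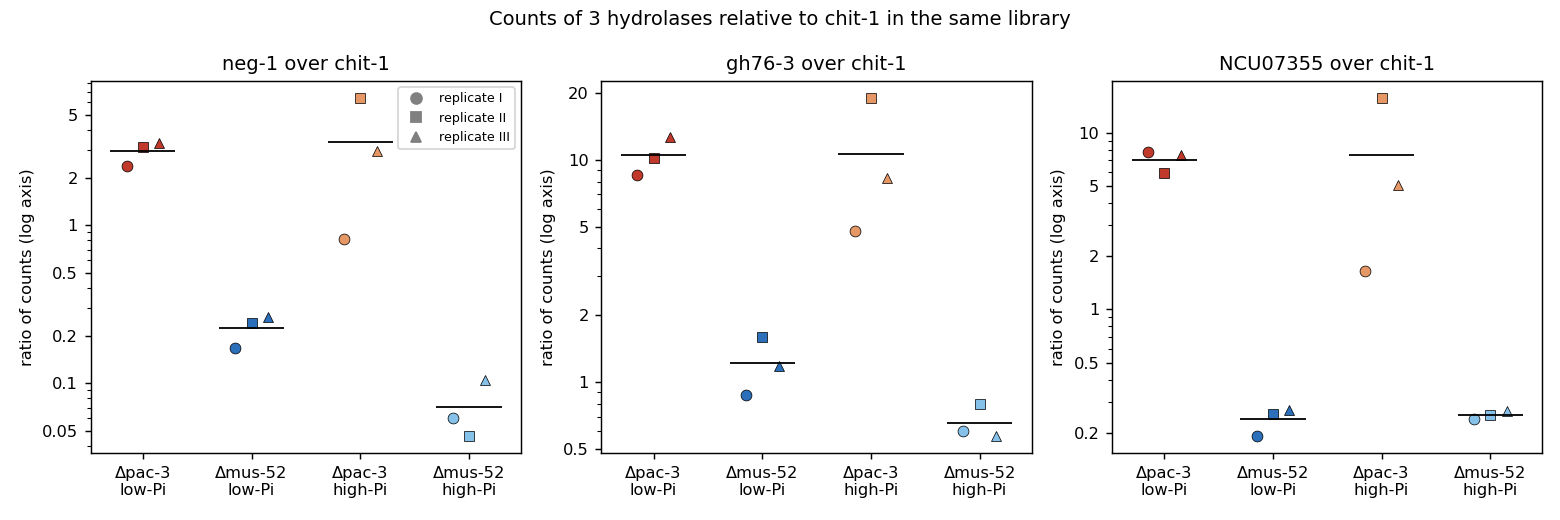
Ratio of the counts of neg-1, gh76-3 and NCU07355 to those of chit-1 in the same library, on a log axis, with 1 point per library and a line at each group's mean. All Δpac-3 points lie above all Δmus-52 points of the same medium, which follows from the choice of the genes. The Δpac-3 high-Pi points run from 1.65 to 15.8 for NCU07355.

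The response to Pi was then tested within each strain, in its own 6 libraries, as low-Pi over high-Pi. In libraries labelled Δmus-52, 2 of the 4 genes passed the test, neg-1 and gh76-3, and both were higher in low-Pi. Of all genes tested 32.6% passed, 18.1% higher and 14.4% lower in low-Pi. The gene neg-1 averaged 6.81 CPM with low-Pi and 2.68 CPM with high-Pi, a log2 fold change of 1.36 (SE 0.29; 2.57-fold; edgeR adjusted p = 0.00596). All 3 low-Pi libraries were above all 3 high-Pi libraries. The gene gh76-3 averaged 36.6 ± 3.37 CPM with low-Pi and 24.6 ± 2.83 CPM with high-Pi (SD, n = 3 each), a log2 fold change of 0.62 (SE 0.11; 1.54-fold; edgeR adjusted p = 0.00291). Its libraries did not overlap either, as was so in this direction for 21.6% of all genes tested. Neither change reached 1.5 on the log2 scale, a size that 3.6% of genes reached together with the adjusted p. The adjusted p stayed below 0.05 in every alternative run, between 1.16e-05 and 0.0282 for neg-1 and between 4.14e-05 and 0.0174 for gh76-3 (edgeR or DESeq2). In the same libraries the summed conidial level was 194.6 to 242.4 CPM in low-Pi against 78.9 to 85.7 CPM in high-Pi. By the same test 3 of the 7 genes were higher in low-Pi. Most of the low-Pi sum was ccg-1, with a mean of 183.5 CPM against 45.5 CPM in high-Pi. The gene con-6 had the lower mean in low-Pi, 7.14 CPM against 16.4 CPM. The part of conidial RNA in the 2 responses was not tested.

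The other 2 genes did not pass in libraries labelled Δmus-52. For chit-1 the mean was 31.4 ± 6.88 CPM with low-Pi and 37.8 ± 3.01 CPM with high-Pi (SD, n = 3 each), a log2 fold change of −0.22 (SE 0.14; edgeR adjusted p = 0.265). Its libraries overlapped, and without low-Pi library I, which held 38.9 CPM, the value was −0.41 (edgeR adjusted p = 0.0306). For NCU07355 the mean was 7.31 ± 0.806 CPM with low-Pi and 9.55 ± 0.783 CPM with high-Pi (SD, n = 3 each), a log2 fold change of −0.35 (SE 0.14; edgeR adjusted p = 0.0838). All 3 low-Pi libraries of this gene were below all 3 high-Pi libraries, as happened in this direction for 27.2% and in either direction for 48.8% of genes tested.

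In libraries labelled Δpac-3 none of the 4 genes passed the test for Pi. The percentage of all genes that passed was 0, that is 0 of 8348 with edgeR, where 413 had an unadjusted p below 0.05, and DESeq2 passed 22. Without Δpac-3 high-Pi library III edgeR passed 31 genes, with 1092 at an unadjusted p below 0.05, and the 4 genes were not among them. The log2 fold change of low-Pi over high-Pi was −0.31 (SE 0.42) for chit-1, 0.01 (SE 0.26) for neg-1, 0.04 (SE 0.12) for gh76-3 and 0.25 (SE 0.34) for NCU07355. Their edgeR adjusted p lay between 0.964 and 0.997. Low-Pi and high-Pi libraries overlapped for each of them, and were separate for 10.9% of all genes tested. For neg-1 and gh76-3 the standard errors are close to those in Δmus-52 libraries, while for chit-1 and NCU07355 they are larger. As no gene passed in this fit, its adjusted p cannot show that a change of the size seen in Δmus-52 libraries is absent. Without Δpac-3 high-Pi library I the Pi value of chit-1 was 0.29, the other sign, with an edgeR adjusted p of at least 0.767 in each fit that left out a library.

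**Figure D3:**
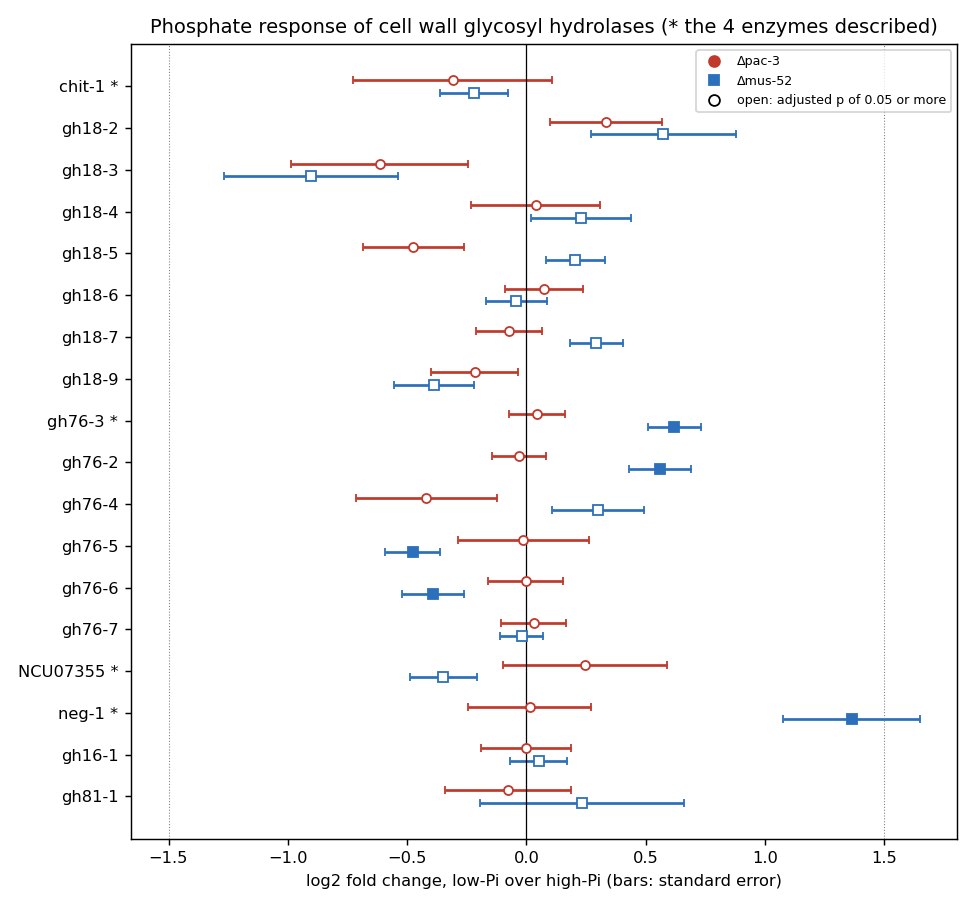
Log2 fold change of low-Pi over high-Pi with its standard error for the 4 enzymes (starred) and 14 other wall hydrolases, with circles for libraries labelled Δpac-3, squares for those labelled Δmus-52, filled where the edgeR adjusted p was below 0.05, and dotted lines at 1.5 either way. In Δmus-52 the filled points are neg-1 (1.36), gh76-3 (0.62) and gh76-2 (0.56) to the right and gh76-5 (−0.48) and gh76-6 (−0.39) to the left, and no Δpac-3 point is filled.

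Whether the response to Pi differs between the strains was not tested for the 4 genes, because that difference equals the difference of the strain comparisons that chose them. As a description, the strain difference in low-Pi minus that in high-Pi, fitted over the 12 libraries, was −1.33 for neg-1, −0.55 for gh76-3, −0.07 for chit-1 and 0.62 for NCU07355 on the log2 scale. Leaving out 1 library at a time kept the sign for neg-1 (−1.74 to −1.09), gh76-3 (−0.64 to −0.47) and NCU07355 (0.35 to 1.03). For chit-1 the value ran from −0.43 to 0.54, the highest without Δpac-3 high-Pi library I.

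The other wall hydrolases with a family name were taken as a list of 17 genes, 9 of GH18, 6 of GH76, 1 of GH16 and 1 of GH81. Of these, 14 had enough counts to be tested, and gh18-1, gh18-8 and gh76-1 did not. In low-Pi 5 of the 14 were higher and 1 lower in libraries labelled Δpac-3 at an edgeR adjusted p below 0.05, or 42.9% in all, against 51.2% of all genes tested (25.3% higher, 25.9% lower). In high-Pi it was again 5 higher and 1 lower, 42.9% against 35.4% of the genes tested (18.8% higher, 16.6% lower). The list had a median log2 fold change of 0.27 with low-Pi and 0.28 with high-Pi, beside 0.02 and −0.01 for all genes tested in the same media. The list reached the study's limit for modulation with 0 genes under low-Pi and 1 under high-Pi. The 6 genes that passed in low-Pi were thus below that limit, and with a limit of 1 on the log2 scale 3 of them were past it. A further 61 genes with a symbol of another GH family, those named gh61 among them, had 18 of 53 higher and 13 lower in low-Pi, and 15 of 54 higher and 9 lower in high-Pi.

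Relatives of chit-1 in family GH18 mostly did not pass. Of the 7 GH18 genes tested, gh18-5 alone passed in either medium, and in the opposite direction to chit-1. The same strain test was passed by 51.2% of genes under low-Pi (25.3% higher) and by 35.4% under high-Pi (18.8% higher). Nothing is read from a count of 7 genes beside these shares. In low-Pi gh18-5 had 34.1, 25.7 and 25.1 CPM in libraries labelled Δpac-3, against 13.04, 14.52 and 15.87 CPM in those labelled Δmus-52 (log2 fold change 0.98; edgeR adjusted p = 0.00027). In high-Pi it had 46.3, 43.3 and 28.3 CPM in libraries labelled Δpac-3, against 13.7, 13.4 and 11.7 CPM in those labelled Δmus-52 (log2 fold change 1.62; edgeR adjusted p = 0.00148). It was the 1 gene of the list that was modulated. The other 6 tested genes of the family lay between −0.24 and 0.50 on the log2 scale in the 2 strain comparisons.

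In family GH76, to which gh76-3 belongs, 4 of the 5 other genes tested passed in each medium. Of these, 3 were higher in libraries labelled Δpac-3. Of all genes tested, 51.2% passed in low-Pi (25.3% higher) and 35.4% in high-Pi (18.8% higher), so with 5 genes nothing is read from the count. The gene gh76-2 had a log2 fold change of 0.87 in low-Pi (edgeR adjusted p = 3.98e-05) and 1.42 in high-Pi (adjusted p = 0.000933), with means of 50.1 ± 3.40 CPM in Δpac-3 against 27.6 ± 1.59 CPM in Δmus-52 low-Pi and 51.0 ± 3.86 CPM in Δpac-3 against 19.3 ± 3.31 CPM in Δmus-52 high-Pi libraries (SD, n = 3 each). Like gh76-3, it was higher in low-Pi in Δmus-52 libraries, by 0.56 on the log2 scale (edgeR adjusted p = 0.00939). In Δpac-3 libraries it did not pass for Pi, as was so for every gene tested. The gene gh76-6 was higher in libraries labelled Δpac-3 by 1.36 in low-Pi (edgeR adjusted p = 1.13e-05) and 0.93 in high-Pi (adjusted p = 0.00516).

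The gene gh76-5 (NCU09937) was higher in libraries labelled Δpac-3 by 1.43 on the log2 scale in low-Pi (edgeR adjusted p = 1.59e-06) and by 0.93 in high-Pi (adjusted p = 0.0395). The high-Pi value rested on spread libraries, with 118.3, 111.1 and 234.0 CPM in Δpac-3 against 72.2, 90.9 and 82.1 CPM in Δmus-52. Without any 1 of the Δmus-52 high-Pi libraries its edgeR adjusted p in high-Pi was 0.0915 to 0.129. Both genes were lower in low-Pi than in high-Pi in libraries labelled Δmus-52, gh76-5 with a log2 fold change of −0.48 (edgeR adjusted p = 0.0115) and gh76-6 with one of −0.39 (adjusted p = 0.0434), so the GH76 genes did not share a direction of the Pi response. The call of gh76-6 (NCU02216) was lost without Δmus-52 low-Pi library I (adjusted p = 0.115), low-Pi library II (0.132) or high-Pi library II (0.156), and that of gh76-5 without high-Pi library II (edgeR adjusted p = 0.0515).

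The gene gh76-7, which encodes DFG5, the partner of the gh76-3 product in attaching wall glycoproteins, went the other way from gh76-3. In low-Pi it had 68.1, 52.7 and 52.3 CPM in libraries labelled Δpac-3, against 78.3, 77.3 and 91.6 CPM in those labelled Δmus-52 (log2 fold change −0.50; edgeR adjusted p = 0.00547). In high-Pi it had 53.6, 60.8 and 54.6 CPM in libraries labelled Δpac-3, against 86.25, 86.81 and 85.04 CPM in those labelled Δmus-52 (log2 fold change −0.59; edgeR adjusted p = 0.00461). The groups did not overlap in either medium. A separation in this direction was found for 29.7% of genes under low-Pi and for 27.2% under high-Pi. In libraries labelled Δmus-52 the Pi value of gh76-7 was −0.02, against 0.62 for gh76-3.

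The GH81 gene gh81-1 (NCU07076), of a family of endo-β-1,3-glucanases, was counted at 0.193 to 1.12 CPM in every library. It was higher in libraries labelled Δpac-3 by 1.03 on the log2 scale in low-Pi and 1.31 in high-Pi. These values are a description, since in both fits gh81-1 met the count filter only through the Δpac-3 libraries. The counts of the list above include it among the 5 higher genes of each medium. Leaving out single libraries took gh81-1 out of those counts in 3 of 6 fits in low-Pi and in 4 of 6 fits in high-Pi. DESeq2 did so in low-Pi.

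**Figure D4:**
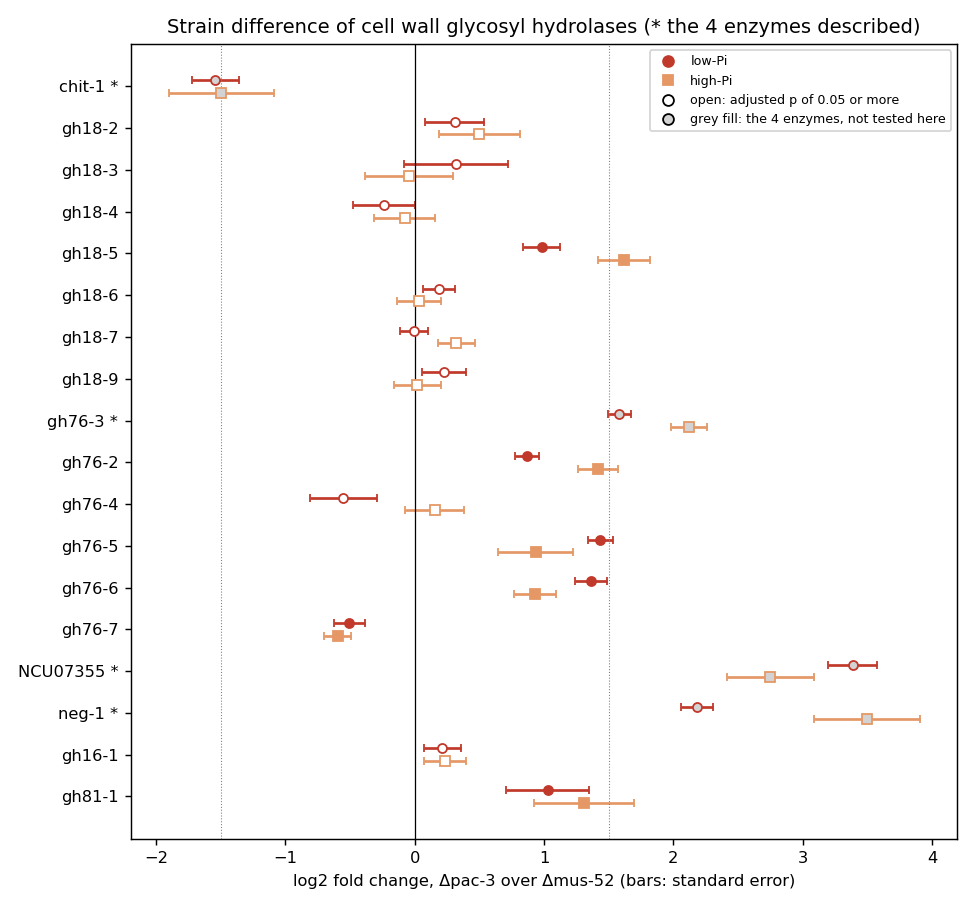
Log2 fold change of Δpac-3 over Δmus-52 with its standard error for the 4 enzymes (starred, grey fill, not tested here) and 14 other wall hydrolases, with circles for low-Pi, squares for high-Pi, coloured fill where the edgeR adjusted p was below 0.05, and dotted lines at 1.5 either way. The 4 enzymes lie near or past the dotted lines, chit-1 on the left and the others on the right, and of the other genes the high-Pi point of gh18-5 (1.62) is past a line.

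For each of the 4 genes the 3 other genes with the most similar profile were found by Pearson's r of log2 CPM over the 12 libraries, among 8464 other genes. These correlations are a description, since all libraries share the same 2 strains and a gene with a large strain difference correlates with others of that kind. Closest to chit-1 were NCU00983 (r = 0.97), NCU03084 (r = 0.97) and hsp70-1 (r = 0.96), a heat shock protein 70 gene, all lower in libraries labelled Δpac-3. Their strain differences, −0.96, −0.80 and −0.41 on the log2 scale in low-Pi, were smaller than that of chit-1. Closest to neg-1 were NCU07810 (r = 0.993), NCU09772 (r = 0.989) and NCU00782 (r = 0.988). Each of these 3 was also higher in low-Pi in libraries labelled Δmus-52, by 1.12, 1.45 and 2.01 on the log2 scale beside 1.36 for neg-1. This likeness is no added result, since r was taken over the same libraries. Closest to gh76-3 were NCU08738 (r = 0.99), NCU01211 (r = 0.989) and NCU00700 (r = 0.988), and closest to NCU07355 were NCU05567 (r = 0.987), NCU01664 (r = 0.984) and NCU08367 (r = 0.982). The gene NCU05567 had 1.01 to 4.21 CPM in libraries labelled Δpac-3 and 0.0343 to 0.0772 CPM in those labelled Δmus-52.

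The genes next to the 4 on the chromosome were looked at to see whether they moved as well. Beside gh76-3, NCU08126 was higher in libraries labelled Δpac-3 2.82-fold in low-Pi (edgeR adjusted p = 4.77e-06) and 2.70-fold in high-Pi (adjusted p = 0.00318). The gene on its other side, NCU08128, had a log2 fold change of −0.07 in low-Pi (edgeR adjusted p = 0.879) and of 3.06 in high-Pi. The high-Pi value is a description, since there the gene met the count filter only through the Δpac-3 libraries. Beside chit-1, NCU02187 was lower under low-Pi in the Δpac-3 libraries (log2 fold change −0.47; edgeR adjusted p = 0.00224) and had −0.08 in high-Pi (adjusted p = 0.571). Beside neg-1, NCU04394 was higher in low-Pi by 0.93 (edgeR adjusted p = 0.0308) and had 0.26 in high-Pi (adjusted p = 0.612). Neither neighbour of NCU07355 had enough counts for a test between the strains. In the annotation chit-1 overlaps a non-coding gene, NCU14003, which has no count of its own here, and the use of strand in the counting is not stated, so reads of NCU14003 could be among those of chit-1. The other 3 genes overlap no annotated gene.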

How the data were processed

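The authors sequenced RNA of 12 cultures as paired-end reads, checked these with FastQC 0.11.7 and trimmed them. They mapped the reads to assembly NC12 with Bowtie2 2.3.4 and deposited raw counts per gene, not normalized. The gene annotation, the counting tool and the use of strand are not given in the sources used here. They also deposited tables of the strain comparisons with means per strain, fold changes, log2 fold changes and p-values from DESeq, which were not used.

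Counts were analysed with edgeR 4.0.16 (limma 3.58.1, R 4.3.3). Each comparison was fitted on its own 6 libraries with genes that filterByExpr kept (minimum count 10, minimum total 15) and with TMM factors, and the quasi-likelihood F test was adjusted by Benjamini-Hochberg over all genes tested, with a prior count of 0.125. A gene passed if its adjusted p was below 0.05, and was modulated if its log2 fold change was also 1.5 or more either way. The interaction was fitted over 12 libraries. Each SE was derived from the test, as the absolute log2 fold change over the square root of the F statistic. Tables and figures were made with Python 3.11.15, pandas 2.3.3 and matplotlib 3.10.9. The procedure was tested on simulated data. P-values set the difference between groups against the spread among replicate libraries, with dispersions moderated over all genes.

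The members, lists and tests were chosen with earlier results of these data known. Named genes are the 4 enzymes, both deleted genes, the 3 genes nearest to each enzyme by correlation, the wall hydrolases of the same families and those modulated. The gene gh81-1 and the chromosomal neighbours were added after their values were seen. The wall list holds genes whose symbol gives a GH family in a RefSeq table of assembly NC12, which matched 9729 of 9730 gene IDs, so enzymes without such a symbol are not in it. Coordinates are those of the gene records in that table. Alternatives changed the tool (DESeq2 1.42.0), the scaling, the filter, the fold limit, the libraries fitted and a block by replicate number, and left out each library in turn.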

Additional observations from a re-analysis of the deposited data

Results flagged for a closer look

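The gene NCU08128, next to gh76-3, was the 1 gene among the tested wall list and neighbours (the 4 enzymes were not tested for this) whose response to Pi differed between the strains by a test of the difference itself. The strain difference in low-Pi minus that in high-Pi was −3.16 on the log2 scale (SE 0.66; edgeR adjusted p = 0.0127, a test that 10.5% of all genes passed). The low-Pi libraries labelled Δpac-3 held 54, 14 and 16 of its counts (0.545 to 0.655 CPM) and the high-Pi ones 21, 34 and 38 (0.685 to 1.09 CPM). The low-Pi libraries labelled Δmus-52 held 21, 19 and 17 (0.485 to 0.862 CPM) and the high-Pi ones 7, 0 and 7 (0 to 0.179 CPM). It was higher in low-Pi in libraries labelled Δmus-52 (log2 fold change 2.54) and had −0.61 in those labelled Δpac-3 (edgeR adjusted p = 0.939). The first value is a description, since in that fit the gene met the count filter only through the low-Pi libraries. With 0 to 7 counts in the Δmus-52 high-Pi libraries, the size of the fold is poorly determined. The gene was also added after its values were seen, which holds for the test of the difference too.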

How the results depend on the processing

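No value that passed a test changed sign under any alternative run. Scaling by total counts alone moved the median of all genes to 0.19 in low-Pi and 0.25 in high-Pi on the log2 scale of the strain comparison (0.02 and −0.01 with TMM), and with it neg-1 in low-Pi to 2.36, gh76-3 to 1.76 in low-Pi and to 2.39 in high-Pi. The gene gh76-7 (NCU03770) in high-Pi then had −0.33 (edgeR adjusted p = 0.0538). Of the other wall hydrolases, 0 were modulated between the strains in low-Pi, but 3 at a limit of 1, 2 with total counts, 1 with no filter on low counts and 0 to 1 without single libraries. In high-Pi 1 was modulated, but 3 at a limit of 1, 3 with total counts and 0 to 2 without single libraries (0 without Δpac-3 high-Pi library I, 2 without Δmus-52 library II or III). Of the same list 3 passed for Pi in Δmus-52, but 1 with the 12 libraries in 1 fit and 1 to 3 without single libraries (1 without high-Pi library II). The chit-1 value ran from −0.41 to −0.087. The interaction had 0 of the list past the adjusted p with edgeR (unadjusted p below 0.05 was reached by 27.6% of all genes), 1 with DESeq2 and 0 to 3 without single libraries (3 without Δpac-3 high-Pi library III). The interaction value ran from −0.43 to 0.54 for chit-1 and from 0.35 to 1.03 for NCU07355.

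Replicate numbers were not taken to pair the libraries in the main fits. Part of the same-numbered pairs did deviate together, and a block by replicate number was fitted as an alternative. The correlation of deviations from group means between libraries of the same number ran from −0.162 to 0.357 over 18 pairs, 8 of them over 0.1. Between libraries of different numbers it ran from −0.346 to 0.218, and 6 of 12 libraries correlated best with their own number. With the replicate block 4377 genes passed between the strains in low-Pi (4231 without it), 2969 in high-Pi (2935), 3248 in the Δmus-52 Pi response (2666), 1 in the Δpac-3 one (0) and 1117 in the interaction (886), among them 1 of the wall list, gh76-2.

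Depth limited gh81-1 and NCU08128, at about 1 CPM or less, and the 3 wall genes left untested.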
